A study of Homo sapiens with 4 samples.

Results

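Amino acid transporter genes were examined in human embryonic stem cells that had been pushed toward mesoderm for 2 days with or without IWP2, a small molecule that blocks Porcupine and so the secretion of Wnt proteins. The genes were taken by name, as every gene of the SLC1A, SLC3A, SLC6A, SLC7A, SLC36A, SLC38A and SLC43A families, whatever their measured values. The set was chosen with earlier results of these data known. There were 59 such genes among the 58365 in the table, each present once. All samples were H1 cells, an established embryonic stem cell line, kept in a custom mTeSR1 medium with 40 ng/ml activin A and 50 ng/ml BMP4 and collected on day 2. The study's methods give these doses the other way round. A vehicle group labelled DMSO and a group labelled IWP2 held 2 samples each, and the dose of IWP2 was not given in the sources used here. Nothing in the labels says whether the replicates were separate cultures, so the p-values measure only the spread between these samples.

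Cells cannot make several amino acids and move nearly all of them through membrane proteins of the solute carrier (SLC) class. Some of these proteins exchange 1 amino acid for another, others use the sodium or proton gradient to pull amino acids in, and a heteromeric type works only when a light chain from SLC7 is tied to a heavy chain from SLC3. Some members sit on lysosomes, where amino acid supply is read by mTORC1, the kinase complex that sets growth. The SLC6 family also holds carriers of neurotransmitters, creatine and taurine.

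Levels are given as FPKM, fragment counts scaled to transcript length and to the number of mapped fragments, a scale that corrects for length and so allows levels to be compared between genes. The differences are on the log2(FPKM + 1) scale, IWP2 minus DMSO, with the standard error (SE), and understate the change of genes with low levels. The adjusted p is that of limma with Benjamini-Hochberg adjustment over the 14022 genes whose mean was at least 1 FPKM over the 4 samples, and a gene was called at an adjusted p under 0.05. The table gives no counts, but the smallest values of long single-transcript genes stood on steps, and the size of 1 step put the libraries at about 19600000 to 24200000 fragments. At that depth 1 fragment on a transcript of 2 kb is worth 0.0207 to 0.0255 FPKM. Samples of 1 group correlated over the tested genes at Pearson's r of 0.972 (DMSO) and 0.980 (IWP2), and samples of different groups at 0.927 to 0.938, as a description across genes.

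The cells carried the marks of the labelled treatment. Of 13 tested Wnt response genes, 10 fell and none rose, and SP5 went from 53.2 and 47.0 FPKM with DMSO to 0.379 and 0.363 FPKM with IWP2. All 5 mesoderm markers in the table fell, while 4 of 5 pluripotency markers rose, among them SOX2, from 0.193 and 0.174 FPKM to 35.6 and 36.1 FPKM. The summed level of the pluripotency markers was 720 to 908 FPKM with DMSO and 2144 to 2148 FPKM with IWP2, and that of the mesoderm markers 864 to 1075 FPKM and 47.2 to 50.9 FPKM. Of 4 endoderm markers 3 fell, and SOX17 did not pass, with 155 and 104 FPKM with DMSO and 79.7 and 94.9 FPKM with IWP2. SOX17 was most of their summed level, which was 154 to 204 FPKM with DMSO and 84.0 to 99.999 FPKM with IWP2. Among 5 amnion or trophoblast markers KRT7 and TFAP2A rose, HAND1 fell, GATA3 did not pass and CGA was at or near 0. Their summed level was 291 to 379 FPKM with DMSO and 175 to 199 FPKM with IWP2. Most of that sum was HAND1, with 234 and 322 FPKM with DMSO and 101 and 119 FPKM with IWP2. TFAP2A went from 16.5 and 12.0 FPKM to 34.0 and 34.2 FPKM, and KRT7 from 0.833 and 0.864 FPKM to 5.85 and 8.22 FPKM. Of the neural markers NEUROG2 and SOX1 were at or near 0, and PAX6, which was not tested, had 1.33 and 0.646 FPKM with DMSO and 0.0838 and 0.0278 FPKM with IWP2. At or under 0.492 FPKM in the 4 samples were the endothelial and blood markers other than KDR, which fell from 53.2 and 60.4 FPKM to 38.6 and 35.7 FPKM. Many of these markers moved with the treatment, and their part in the transporter differences was not tested. In bulk RNA fewer cells of a type and less RNA per cell cannot be told apart.

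Amino acid transporters were present at very different levels. With the mean over the 4 samples, 4 genes lay above 100 FPKM, 12 between 10 and 100 FPKM, 14 between 1 and 10 FPKM, and 29 did not reach 1 FPKM and were not tested. The genes nearest to this limit were SLC38A4 and SLC1A6 at 1.92 and 1.95 FPKM inside it and SLC7A4 and SLC6A2 at 0.817 and 0.680 FPKM outside it, and SLC7A4 reached 1.25 FPKM in DMSO replicate 1. The most abundant was SLC3A2, the heavy chain also known as 4F2hc or CD98, followed by SLC7A5 (LAT1), its best known light chain and an importer of large neutral amino acids, and SLC1A5 (ASCT2), a sodium-dependent exchanger of glutamine and other small neutral amino acids. Together these made up 57.3% and 53.6% of the summed transporter FPKM in the DMSO samples and 48.4% and 49.0% in the IWP2 samples.

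**Figure D1:**
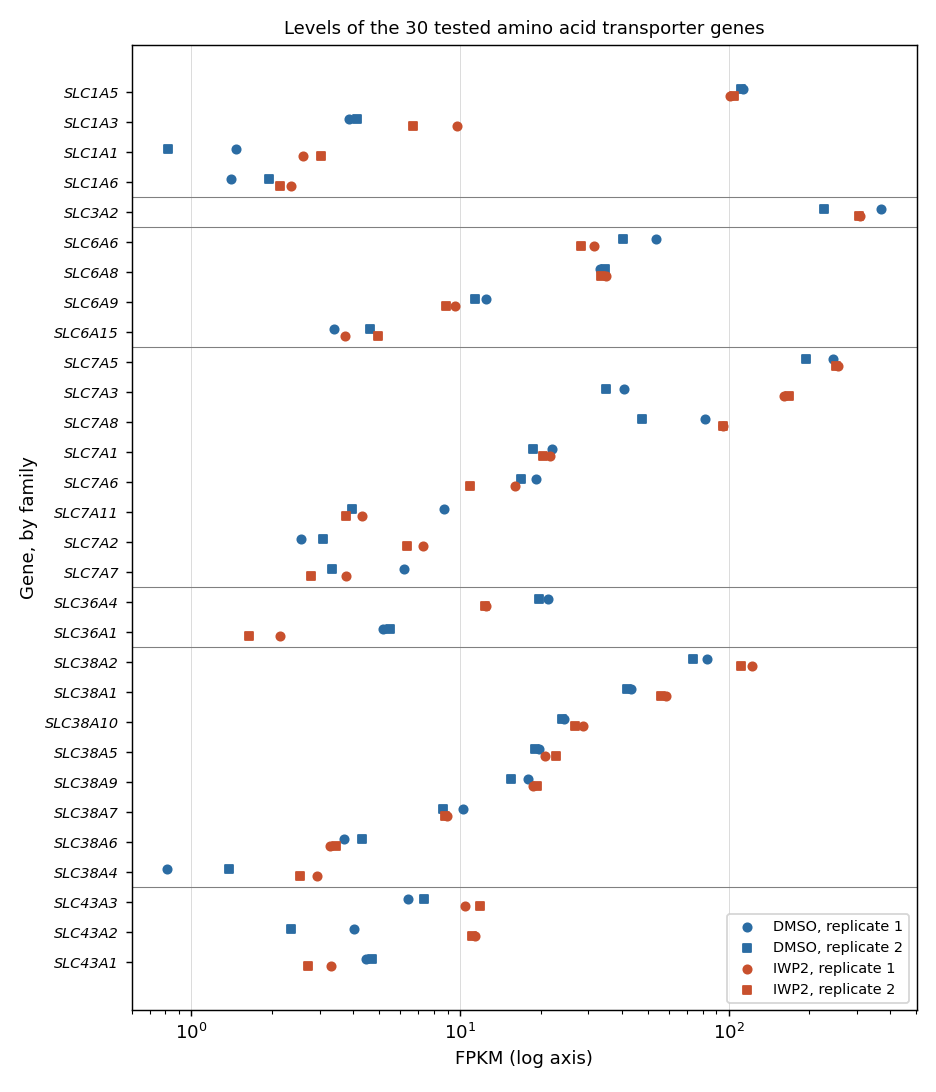
FPKM (log axis) of the 30 tested amino acid transporter genes, grouped by family, with 1 point per sample (blue for DMSO, orange for IWP2, circles for replicate 1 and squares for replicate 2). SLC3A2 and SLC7A5 stand at the right with overlapping or nearly touching groups, while the orange points of SLC7A3, at 161 and 168 FPKM, lie far to the right of its blue points, at 40.7 and 34.9 FPKM.

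Of the 30 tested members, 7 rose with IWP2, 2 fell and 21 did not pass. Across all tested genes 6.75% rose and 8.44% fell, so that 15.2% were called in either direction, beside 30% of the members. The median difference of the members was 0.13, beside -0.02 over all genes tested, and the median size of the difference without its sign was 0.42, beside 0.22. The groups did not overlap in 23 members, 15 with IWP2 above and 8 with IWP2 below, which is 76.7% of those tested beside 59.8% of all tested genes (27.9% above and 31.9% below). The risen genes were SLC7A3, SLC43A2, SLC7A2, SLC1A3, SLC43A3, SLC38A2 and SLC38A1, and the fallen were SLC36A1 and SLC36A4. SLC7A3 was the only one of the 9 called under every one of its 12 alternative settings, and leaving out either IWP2 sample ended the other 8 calls. None of the 9 changed direction under any alternative, but their groups did not overlap. Leaving out a sample or changing the pseudocount, filter, variance trend or replicate block could therefore not have turned the direction.

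**Figure D2:**
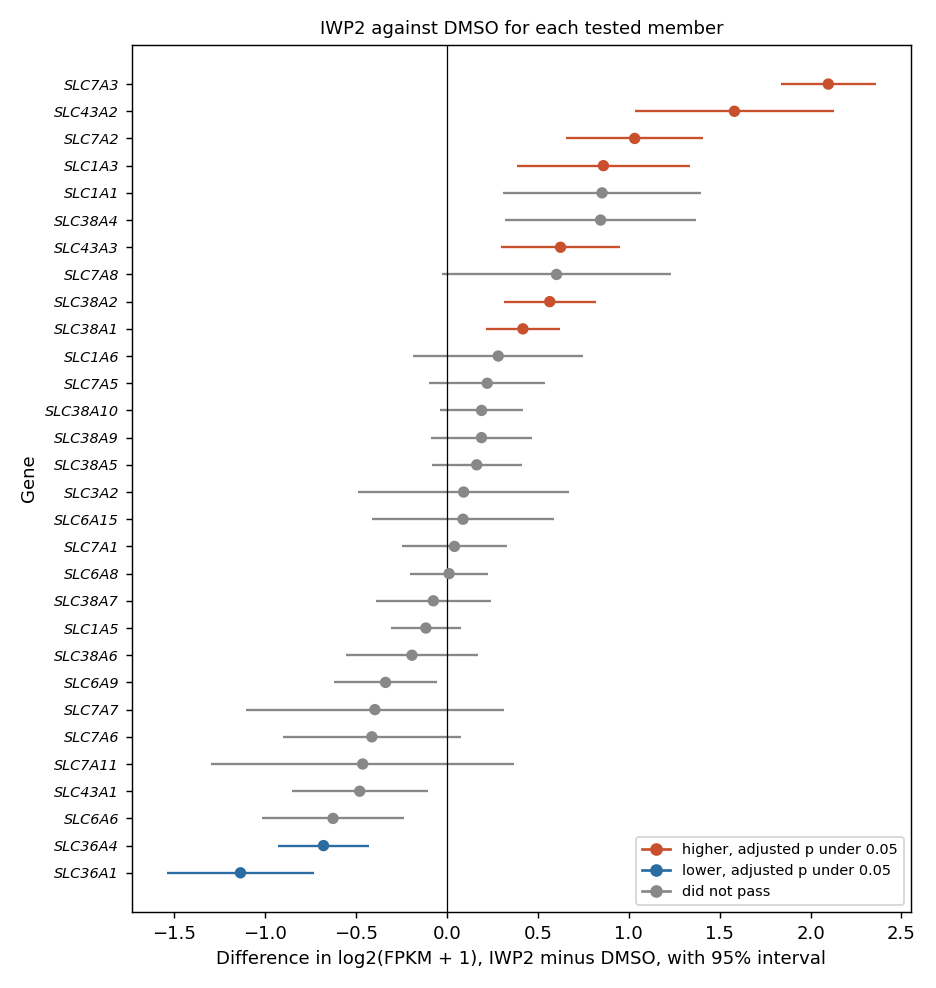
Difference in log2(FPKM + 1), IWP2 minus DMSO, of each tested member with its 95% interval from limma (n = 2 per group), in order of size. SLC7A3 is farthest right at 2.10 and SLC36A1 farthest left at -1.14, and 21 of the 30 genes are grey because they did not pass.

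The cationic amino acid transporters SLC7A1, SLC7A2 and SLC7A3 carry arginine, lysine and ornithine. SLC7A3 (CAT-3, chrX:70925582-70931125 on GRCh38, minus strand) had 40.7 and 34.9 FPKM in the DMSO samples and 161 and 168 FPKM in the IWP2 samples. The groups lay far apart, with a mean FPKM 4.36 times as high in the IWP2 group. The difference was 2.10 ± 0.10 (SE, adjusted p = 0.00061 by limma), and the adjusted p stayed between 0.00022 and 0.034 over the alternatives. SLC7A2 (CAT-2, chr8:17497088-17570573, plus strand), which also supplies arginine to nitric oxide synthase, rose from 2.55 and 3.09 FPKM to 7.26 and 6.34 FPKM. Its difference was 1.03 ± 0.15 (SE, adjusted p = 0.012 by limma), with an adjusted p of 0.125 without IWP2 replicate 1 and 0.0904 without IWP2 replicate 2.

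SLC7A1 (CAT-1), the widely used carrier of this subfamily, had 22.0 and 18.7 FPKM with DMSO and 21.6 and 20.3 FPKM with IWP2. Its groups overlapped, and the difference of 0.04 had a 95% interval of -0.25 to 0.33. The summed level of the subfamily was 65.3 and 56.7 FPKM with DMSO and 190 and 195 FPKM with IWP2. SLC7A3 held 62.4% and 61.5% of that sum in the DMSO samples and 84.8% and 86.3% in the IWP2 samples. Among all 59 transporters its share of the summed FPKM went from 3.21% and 3.52% to 11.7% and 12.4%.

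**Figure D3:**
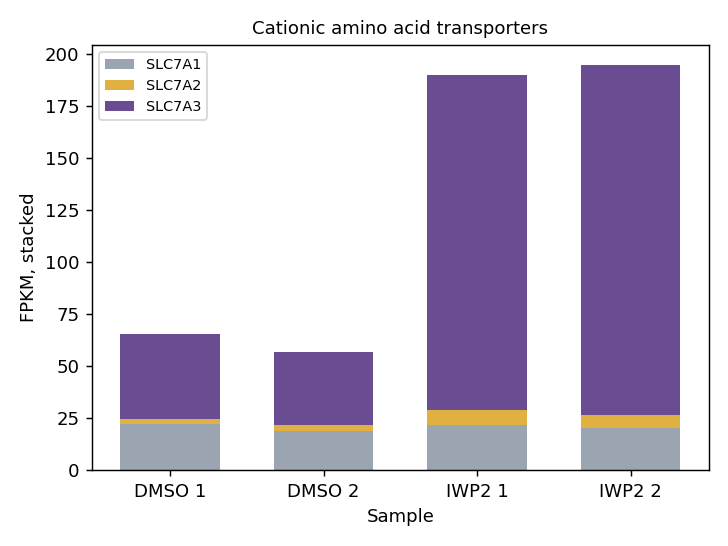
Stacked FPKM of SLC7A1, SLC7A2 and SLC7A3 in each of the 4 samples. The bars reach 65.3 and 56.7 FPKM in the DMSO samples and 190 and 195 FPKM in the IWP2 samples, and the added height is nearly all SLC7A3.

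None of the 6 tested heavy and light chains of the heteromeric transporters passed in limma, and 0 had an unadjusted p under 0.05, beside 30.3% of all tested genes. The heavy chain SLC3A2 had 369 and 227 FPKM in the DMSO samples and 309 and 307 FPKM in the IWP2 samples, so that the DMSO samples enclosed both IWP2 samples. Its difference was 0.09 ± 0.23 (SE, adjusted p = 0.83 by limma), with a 95% interval of -0.49 to 0.67. SLC7A5 had 245 and 194 FPKM with DMSO and 256 and 252 FPKM with IWP2, a difference of 0.22 ± 0.13 (SE, adjusted p = 0.31 by limma). SLC7A5P1, a pseudogene copy of SLC7A5, was listed at 3.61 to 6.23 FPKM in the 4 samples, and reads could have been split between the copies.

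SLC7A8 (LAT2), an exchanger of neutral amino acids, had 81.6 and 47.5 FPKM with DMSO and 95.0 and 95.1 FPKM with IWP2. The groups did not overlap, but the DMSO samples stood so far apart that the difference of 0.60 ± 0.25 (SE) did not pass (adjusted p = 0.18 by limma). Its difference was 0.99 without DMSO replicate 1, 0.22 without DMSO replicate 2 and 0.60 without either IWP2 sample. The other tested light chains, SLC7A6, SLC7A7 and the cystine importer SLC7A11, had differences of -0.41, -0.40 and -0.46, and none passed.

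The 6 light chains known to pair with SLC3A2 had a summed FPKM 0.978 and 1.18 times that of SLC3A2 in the DMSO samples and 1.22 and 1.19 times in the IWP2 samples. SLC7A5 was the main part of that sum, at 67.8% and 72.9% with DMSO and 68.2% and 69.0% with IWP2. The other heavy chain, SLC3A1, was at or under 0.128 FPKM in the 4 samples, and its light chains SLC7A9 and SLC7A13 were also at or near 0.

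The SLC43 family carries large neutral amino acids without a sodium gradient through SLC43A1 (LAT3) and SLC43A2 (LAT4), while SLC43A3 is known as a carrier of purine bases rather than amino acids. SLC43A2 (chr17:1569267-1628886, minus strand) had 4.02 and 2.34 FPKM with DMSO and 11.4 and 11.1 FPKM with IWP2. Its difference was 1.58 ± 0.22 (SE, adjusted p = 0.010 by limma), and the adjusted p was 0.112 without IWP2 replicate 1 and 0.0997 without IWP2 replicate 2. SLC43A3 (chr11:57406954-57427580, minus strand) rose from 6.39 and 7.37 FPKM to 10.4 and 11.8 FPKM, a difference of 0.62 ± 0.13 (SE, adjusted p = 0.034 by limma), and lost its call without any 1 of the 4 samples (adjusted p between 0.0623 and 0.218).

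SLC43A1 lies 57.0 kb from SLC43A3 on chromosome 11 and had the opposite sign. It had 4.47 and 4.68 FPKM with DMSO and 3.30 and 2.71 FPKM with IWP2. The groups did not overlap, and the difference of -0.48 ± 0.15 (SE) did not pass (adjusted p = 0.095 by limma).

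The SLC38 family holds sodium-coupled neutral amino acid transporters, with the plasma membrane members SLC38A1 and SLC38A2 importing glutamine and alanine. SLC38A2 (SNAT2, chr12:46358189-46372867, minus strand), the member best known to be induced when amino acids run short, rose from 83.4 and 74.0 FPKM to 122 and 112 FPKM. The difference was 0.56 ± 0.10 (SE, adjusted p = 0.022 by limma), with an adjusted p of 0.0742 to 0.155 when DMSO replicate 2 or either IWP2 sample was left out. SLC38A1 (SNAT1, chr12:46183063-46270017, minus strand) rose from 43.2 and 42.0 FPKM to 58.3 and 56.2 FPKM, a difference of 0.42 ± 0.08 (SE, adjusted p = 0.028 by limma), and lost its call without any 1 of the 4 samples (adjusted p between 0.0732 and 0.178).

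SLC38A4 lies in the same stretch of chromosome 12, where 88.2 kb separate SLC38A1 from SLC38A2 and 392 kb separate SLC38A2 from SLC38A4. It had 0.814 and 1.38 FPKM with DMSO and 2.93 and 2.55 FPKM with IWP2, and its difference of 0.84 ± 0.21 (SE) did not pass (adjusted p = 0.055 by limma). Summed, the 3 neighbours had 127 and 117 FPKM with DMSO and 183 and 170 FPKM with IWP2. Of the other tested members of the family, SLC38A10 had 24.4 and 24.1 FPKM against 28.8 and 26.8 FPKM (difference 0.19, adjusted p = 0.23 by limma). The lysosomal arginine sensor SLC38A9 had 17.9 and 15.4 FPKM against 18.8 and 19.4 FPKM and did not pass either. In all, 2 of the 8 tested SLC38 genes rose and none fell, while 6.75% of all tested genes rose and 8.44% fell. The differences of the 8 lay between -0.19 and 0.84.

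The SLC36 transporters carry small neutral amino acids such as glycine, alanine and proline. Both of the only 2 tested members fell, beside 8.44% of all tested genes. SLC36A1 (PAT1, chr5:151437046-151492381, plus strand), which exports amino acids from lysosomes, fell from 5.15 and 5.48 FPKM to 2.14 and 1.63 FPKM, with a mean FPKM 2.82 times as high in the DMSO group. The difference was -1.14 ± 0.16 (SE, adjusted p = 0.011 by limma).

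SLC36A4 (PAT4, chr11:93144171-93197964, minus strand), a high-affinity carrier of proline and tryptophan, fell from 21.3 and 19.7 FPKM to 12.5 and 12.4 FPKM. The difference was -0.68 ± 0.10 (SE, adjusted p = 0.012 by limma). The call was lost without DMSO replicate 2 for SLC36A1 (adjusted p = 0.0508), without DMSO replicate 1 for SLC36A4 (0.0514), and without either IWP2 sample for both (0.0714 to 0.111). SLC36A2, 89.5 kb from SLC36A1 on chromosome 5, was under the limit for testing, and was singled out after its values were seen. It had 0.681 and 0.672 FPKM in the DMSO samples and was listed at 0 in both IWP2 samples. SLC36A3, the next gene along, was listed at 0 in the 4 samples.

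SLC1 holds the sodium-coupled glutamate transporters and the neutral exchangers SLC1A4 and SLC1A5. SLC1A3 (GLAST, chr5:36606355-36688334, plus strand), a glutamate and aspartate importer, rose from 3.88 and 4.14 FPKM to 9.71 and 6.70 FPKM. The difference was 0.86 ± 0.19 (SE, adjusted p = 0.040 by limma), and the call was lost without any 1 of the 4 samples (adjusted p between 0.0744 and 0.185). SLC1A1, which carries glutamate and cysteine, had 1.46 and 0.817 FPKM with DMSO and 2.61 and 3.04 FPKM with IWP2. Its groups did not overlap and its difference, 0.85 ± 0.22 (SE), was about that of SLC1A3 but did not pass (adjusted p = 0.059 by limma).

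The abundant SLC1A5 had 113 and 111 FPKM with DMSO and 101 and 105 FPKM with IWP2. The difference was -0.12 ± 0.08 (SE, adjusted p = 0.37 by limma), with a 95% interval of -0.31 to 0.08.

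The SLC6 family was the largest, with 19 genes, of which 15 did not reach a mean of 1 FPKM. None of the 4 tested genes passed in limma, while 2 had an unadjusted p under 0.05, beside 30.3% of all tested genes. The taurine transporter SLC6A6 had 53.6 and 40.4 FPKM with DMSO and 31.5 and 28.2 FPKM with IWP2. Its groups did not overlap, and the difference of -0.63 ± 0.16 (SE) missed the threshold (adjusted p = 0.055 by limma). It passed in 3 of the 8 alternatives that kept all samples, among them the rescaling to TPM (adjusted p = 0.030 by limma). Over these 8 the adjusted p by limma lay between 0.027 and 0.199. With 1 sample left out, the difference lay between -0.83 and -0.43.

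The creatine transporter SLC6A8 had overlapping groups, with 33.2 and 34.7 FPKM against 34.9 and 33.5 FPKM and a difference of 0.01 with a 95% interval from -0.21 to 0.23. The glycine transporter SLC6A9 and the neutral amino acid transporter SLC6A15 had differences of -0.34 and 0.09.

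**Figure D4:**
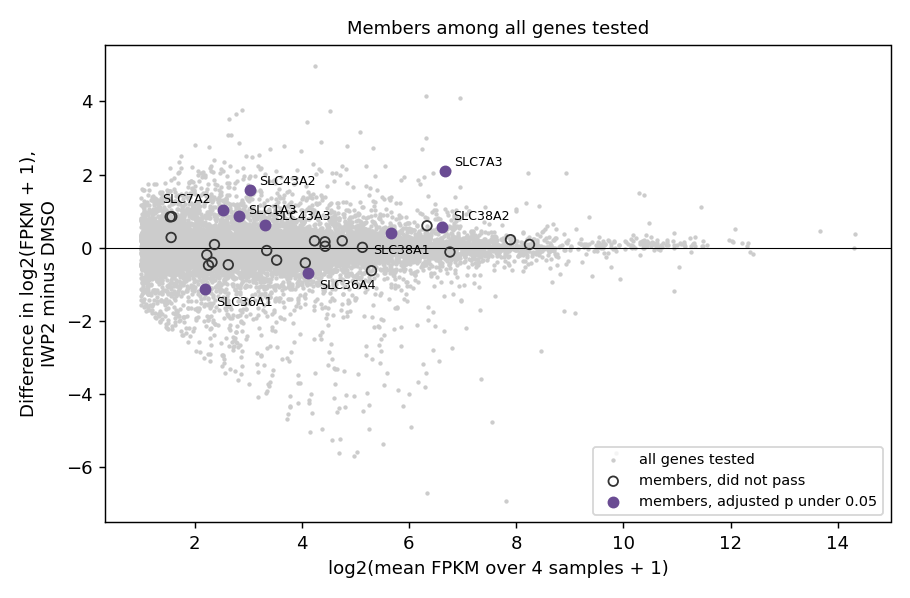
Difference in log2(FPKM + 1), IWP2 minus DMSO, against the log2 of the mean level for all 14022 genes tested (grey), with the tested amino acid transporter genes as circles, filled for the 9 that passed. SLC7A3 stands apart from the other abundant members, while SLC3A2 and SLC7A5 at the right lie near 0.

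The 29 members under the limit had means from 0 to 0.817 FPKM and at most 1.25 FPKM in any sample. SLC6A14, SLC6A18, SLC7A13, SLC36A3 and SLC38A11 were listed at 0 in the 4 samples. Of the 24 with a value above 0 in at least 1 sample, 12 had groups that did not overlap, 50% beside 32.8% of the 14895 such genes under the limit in the whole table. The noradrenaline transporter SLC6A2 was the highest of those with IWP2 above, with 0.506 and 0.261 FPKM with DMSO and 0.807 and 1.15 FPKM with IWP2. It was named after its values were seen and was not tested.

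Promoter sequences in RefSeq (GRCh38.p14) were found for 44 of the 59 members and for 6 of the 9 called ones, and the 250 bases before the annotated start were searched on both strands. The letters CTTTGAA or CTTTGAT, a core recognised by the Wnt effectors TCF and LEF, were in 1 of the 44 members and in none of the 6, beside 6.03% of all 27305 promoters. The letters TGATGNAA, the core of the amino acid response element bound by ATF4, were in 1 of the 44 members, the risen gene SLC1A3, beside 3.19% of all promoters. The GC box GGGCGG was in 24 of the 44 and in 5 of the 6, beside 42.3% of all promoters. A match is only a description of these letters and not a site of binding. Shown are the window of SLC1A3 (chr5:36596338-36596587, plus strand), as the only called gene with the response element letters, and those of the risen SLC38A1 (chr12:46266517-46266766, minus strand) and the fallen SLC36A4 (chr11:93197992-93198241, minus strand), 5′ to 3′, with TGATGNAA and the GC box in either orientation in capitals.
SLC1A3: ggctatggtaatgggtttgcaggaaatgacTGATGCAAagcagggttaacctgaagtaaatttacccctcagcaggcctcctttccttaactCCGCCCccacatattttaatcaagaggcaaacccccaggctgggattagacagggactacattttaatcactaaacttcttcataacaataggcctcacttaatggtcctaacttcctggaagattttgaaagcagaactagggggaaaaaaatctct
SLC38A1: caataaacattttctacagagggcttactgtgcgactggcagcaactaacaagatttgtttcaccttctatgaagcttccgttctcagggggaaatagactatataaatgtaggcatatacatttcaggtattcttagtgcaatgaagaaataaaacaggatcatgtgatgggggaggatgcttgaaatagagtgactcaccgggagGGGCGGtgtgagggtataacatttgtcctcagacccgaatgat
SLC36A4: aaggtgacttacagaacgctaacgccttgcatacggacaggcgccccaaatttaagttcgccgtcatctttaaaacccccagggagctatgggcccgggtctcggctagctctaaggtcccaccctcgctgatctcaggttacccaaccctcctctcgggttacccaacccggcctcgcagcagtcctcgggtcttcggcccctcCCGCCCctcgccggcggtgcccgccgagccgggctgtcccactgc
The GC box lies 43 bases before the start of SLC38A1, counted from its first base, and 45 bases before that of SLC36A4, on opposite strands. The RefSeq starts differ from the GENCODE spans given above, since that of SLC1A3 lies upstream of its span and the whole window of SLC38A1 lies inside its span.

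Genes that work with the transporters were described from lists of response genes, sensors and enzymes. The response list held genes of the amino acid response, which ATF4 drives when amino acids are short, and of the stress response. Of its 37 tested genes, 8 fell, 2 rose and 27 did not pass. That is 27.0% called beside 15.2% of all tested genes, with a median difference of -0.07. TRIB3, a pseudokinase that ATF4 induces, fell from 10.3 and 7.19 FPKM to 3.38 and 2.91 FPKM (difference -1.21, adjusted p = 0.016 by limma). The tyrosyl and tryptophanyl tRNA synthetase genes YARS and WARS fell by 0.70 and 0.61, and PCK2, the mitochondrial PEP carboxykinase, by 0.63. VLDLR, a lipoprotein receptor that is also on the list, rose from 10.7 and 11.2 FPKM to 30.9 and 29.7 FPKM. ATF4 itself had 426 and 354 FPKM with DMSO and 372 and 398 FPKM with IWP2, and the asparagine synthetase gene ASNS 93.7 and 85.1 FPKM and 94.5 and 97.4 FPKM, and neither passed.

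Among 31 tested genes of amino acid sensing by mTORC1, 1 rose, 2 fell and 28 did not pass, which is 9.68% called beside 15.2%. The riser was WDR59 of the GATOR2 complex (0.61), and the fallers were the Rag GTPase gene RRAGB (-0.67) and CASTOR1, a cytosolic arginine sensor (-0.57). Of 41 tested amino acid enzymes 3 rose and 4 fell, 17.1% called beside 15.2%. The arginine-linked genes GATM and ASS1 had differences of -0.93 and -0.63. GATM makes the precursor of creatine from arginine, and ASS1 makes the precursor of arginine from citrulline. The cystathionine gamma-lyase gene CTH and the mitochondrial serine gene SHMT2 fell by 0.59 and 0.46 and stand on both the response and the enzyme lists. So does PHGDH, the first enzyme of serine synthesis, which rose from 323 and 290 FPKM to 408 and 411 FPKM (difference 0.42, adjusted p = 0.035 by limma). None of 10 tested amino acid carriers outside the 7 families passed in limma, with differences from -0.66 to 0.52, while 5 had an unadjusted p under 0.05, beside 30.3% of all tested genes.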

How the data were processed

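RNA of 4 H1 samples, 2 labelled DMSO and 2 labelled IWP2, was sequenced by the submitters from Illumina TruSeq libraries made with 2 µg of total RNA. The authors deposited 1 table of FPKM values per gene and sample. The submitters' processing notes name BWA, Bowtie, RSEM and the build hg19, with no versions, but 97.3% of the 58102 gene IDs found in GENCODE 29 had its GRCh38 coordinates, so GRCh38 was used here, with starts counted from 1. Columns marked +IWP2 were matched to samples by title, and those marked -IWP2 to the DMSO group, with the number in the column's name as the replicate. FPKM was transformed to log2(FPKM + 1), genes with a mean of at least 1 FPKM over the 4 samples were kept, and IWP2 was compared with DMSO by limma 3.58.1 in R 4.3.3 (two-sided, variance trend, Benjamini-Hochberg adjustment over all tested genes), without a replicate block. The members and gene lists were chosen with earlier results of these data known. Members named with values were those called, the 10 with the highest mean FPKM and the 5 with the largest differences among those that did not pass; from each other list, up to 5 called genes were named, and a few others named in the text were chosen after their values were seen. Values of a few genes are not reported here. The fit was tested on simulated data. FPKM carries no counts, so depth was estimated from the steps of low values in single-transcript genes over 5 kb, where 95.1% to 100% of values lay within 0.2 of a whole fragment. Alternatives changed the pseudocount, filter, scaling, variance trend and replicate block, or left out 1 sample.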

Additional observations from a re-analysis of the deposited data

How the results depend on the processing

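With no filter on low values, 1 transporter rose and 1 fell (SLC7A3 and SLC36A2) among 54 tested. Over all genes 118 rose and 263 fell, among 28917 genes tested. Leaving out 1 sample at a time gave 1 to 6 risen and 0 to 3 fallen transporters, and 97 to 724 risen and 238 to 819 fallen genes over the whole table. The lone sample left in a group is then assumed to vary like the others, and the lowest counts came from leaving out either IWP2 sample. The other alternatives were pseudocounts of 0.1 and 0.5, a mean of at least 5 FPKM, TPM, quantile normalization, no variance trend and the replicate block. They left 8 to 10 transporters called, of which 7 to 9 were also called in the reported fit. With a mean of at least 5 FPKM, 8 of 21 tested transporters were called, while 714 genes rose and 906 fell among 9617. The rest called 9 to 10 of 30 transporters, while 862 to 1091 genes rose and 1059 to 1266 fell among 14022. Over the 19 named genes, 176 of 223 single-gene values kept their direction and side of the threshold, 35 lost the call, 8 gained it and 4 changed sign. The changes of sign were SLC6A8, at -0.0165 with TPM and between -0.0186 and 0.0405 when samples were left out, and SLC3A2, between -0.26 and 0.44 when samples were left out. The median over all genes stayed between -0.04 and 0.02 under every setting. The replicate numbers in the column names gave only 2 pairs, whose deviations from the group means correlated at 0.152, so they were not taken as pairing. With the replicate block 10 transporters were called, the 9 reported and SLC6A6 (adjusted p = 0.027 by limma).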

Other observations

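The DMSO samples differed from each other in several of the transporters and in genes of the amino acid response, which were picked out after their values were seen and were not tested. SLC7A11, the cystine importer, had 8.72 FPKM in DMSO replicate 1 and 3.95 FPKM in DMSO replicate 2, beside 4.32 and 3.75 FPKM in the IWP2 samples. SLC7A7, a light chain that exports cationic amino acids, had 6.20 and 3.32 FPKM with DMSO and 3.75 and 2.78 FPKM with IWP2. Among the response genes CHAC1, which breaks down glutathione, had 16.0 and 6.36 FPKM with DMSO and 8.46 and 8.43 FPKM with IWP2. STC2, a secreted stress-linked glycoprotein, had 26.0 and 8.35 FPKM with DMSO and 19.3 and 20.4 FPKM with IWP2, and DDIT4, an inhibitor of mTORC1, had 40.6 and 17.9 FPKM with DMSO and 35.9 and 38.5 FPKM with IWP2. In each of these picked genes DMSO replicate 1 was the highest of the 4 samples. That was not so in SLC7A8, where the DMSO samples also stood far apart.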
